A study of Macaca mulatta with 4 samples.

Results

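Tripartite motif (TRIM) genes were followed in rhesus macaque (Macaca mulatta) morulae whose nuclear genome came from one parent only. The members were all genes of the deposited count table whose matched symbol was TRIM followed by a number, with an optional final letter, apart from TRIM28. This gave 49 genes among 21314 identifiers, of which 14654 had a matched symbol. Each member had 1 identifier. Of the 49, 35 had enough reads to be tested, 12 had a few reads and were not tested, and 2 had 0 counts in every library. Gynogenetic (GG) embryos, with maternal chromosomes only, and androgenetic (AG) embryos, with paternal chromosomes only, were compared at the morula stage, with 2 RNA-seq libraries each. The labels give no strain, age, treatment or method of making the embryos, and name the same providers for both groups. They mention 2 embryo samples in a tube, which leaves the number of embryos behind a library unclear, and do not trace replicates to separate animals. The p-values therefore reflect differences among these libraries only, which may be technical. As background, embryos of either kind develop in the cytoplasm of an egg and so start with the egg's stored RNA.

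Most TRIM proteins have a RING finger, which can pass ubiquitin to a target. B-box zinc fingers follow, and then a coiled coil through which the proteins pair. The domain after the coiled coil differs between members and sets what they bind. It can be a PRY-SPRY domain, an NHL repeat, a PHD finger with a bromodomain, or a COS box that binds microtubules. Many PRY-SPRY members are induced by interferon and act against viruses, and TRIM5 of the rhesus macaque is known for blocking the capsid of HIV-1. Other members act in transcription, in muscle, or on RNA in early development. Sequences of these genes were not used here.

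Total estimated counts were 21335918 and 29733977 in GG replicates 1 and 2, and 14129608 and 19108735 in AG replicates 1 and 2. Levels below are counts per 1000000 (CPM), scaled to the adjusted total of each library, and are compared between libraries for 1 gene at a time, since they are not divided by transcript length. In bulk RNA of whole embryos, fewer cells of a type and less RNA per cell cannot be told apart. The pluripotency genes POU5F1 and NANOG, which mark cells of the early embryo, had at least 493 counts in each library and were not called; other genes of that list moved in both directions, as given further on. Markers of cumulus cells and of sperm summed to at most 0.784 CPM in any library. The 7 matched blood cell markers summed to 14.8 and 18.1 CPM in GG replicates 1 and 2, against 155 and 69.1 CPM in AG replicates 1 and 2. PTPRC gave most of this sum in AG, where the T cell gene CD3E had 0 and 1 counts in replicates 1 and 2, and 0 in both GG libraries.

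RNA of most of the 49 matched members was present in both groups of morulae. A further 26 listed TRIM symbols matched no identifier, so they were not analysed here. A read was found for 44 and 43 of the 49 members in GG replicates 1 and 2, and for 38 and 40 in AG replicates 1 and 2. The summed level of all members was 1488 and 1612 CPM in GG replicates 1 and 2, against 1533 and 1475 CPM in AG replicates 1 and 2, so the family total of the groups overlapped. TRIM60 alone supplied 41.1 and 51.0% of the members' reads in GG replicates 1 and 2, against 47.9 and 35.4% in AG replicates 1 and 2. Without TRIM60 and TRIM14 the sum was 502 and 474 CPM in GG, against 435 and 439 CPM in AG.

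Of the 35 tested members, TRIM22, TRIM5, TRIM77 and TRIM24 rose in GG and TRIM3 and TRIM36 fell, by edgeR's quasi-likelihood test at an adjusted p under 0.05 over all 13227 tested genes. These 6 are 17.1% of the tested members, against 12.9% of all tested genes, so the count is near the background. By direction, 11.4% of members were called higher in GG, against 6.34% of all genes, and 5.71% were called lower, against 6.58%. The log2 fold change, GG minus AG, ranged from -2.93 to 4.35 over the tested members. Its median was -0.36, against 0.04 over all tested genes. The GG libraries lay wholly above the AG libraries in 10 of the 35 members, against 33.4% of all genes. They lay wholly below in 17 of the 35, against 30.7% of all genes. The groups of the other 8 overlapped, so 77.1% of members and 64.1% of all genes did not overlap. At an unadjusted p under 0.05 there were 15 of the 35 members, against 32% of all genes. Among the 15 members with a mean of at least 10 CPM edgeR called 5, against 20.5% of all genes at that level. The 35 had passed a filter on low counts, so these figures do not describe the family as a whole.

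**Figure D1:**
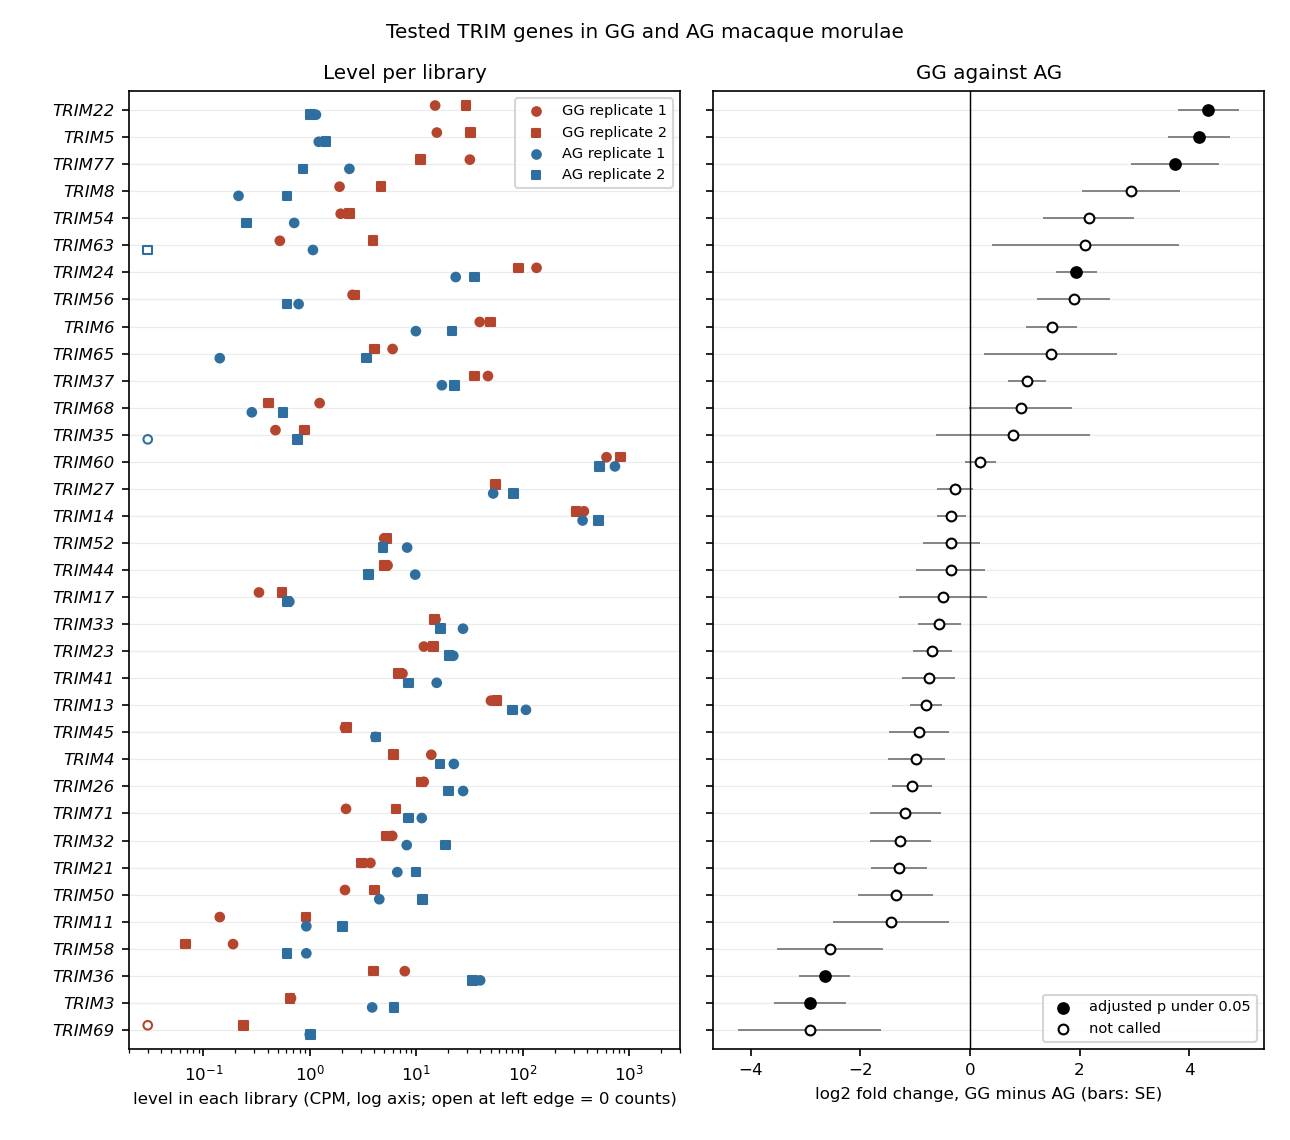
Levels and changes of the 35 tested TRIM genes, ordered by fold change. Left, CPM in each library on a log axis, GG in red and AG in blue, circles for replicate 1 and squares for replicate 2, open symbols at the left edge for 0 counts. Right, log2 fold change GG minus AG with its standard error, filled where the adjusted p is under 0.05: TRIM22, TRIM5, TRIM77 and TRIM24 lie right of 0, TRIM36 and TRIM3 left of it.

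The largest increases were in 2 neighbouring antiretroviral genes. TRIM22 (ENSMMUG00000000338), an interferon-inducible gene known to limit HIV-1 transcription, had 15.01 and 29.15 CPM in GG replicates 1 and 2, against 1.14 and 1.02 CPM in AG replicates 1 and 2. Both GG libraries were far above both AG libraries, which lay close together. The log2 fold change was 4.35 ± 0.56 (SE, edgeR adjusted p = 0.0163), which is 20.4-fold. TRIM5 (ENSMMUG00000000335), the capsid-binding restriction factor, had 15.6 and 32.3 CPM in GG replicates 1 and 2, against 1.21 and 1.42 CPM in AG replicates 1 and 2. Its groups were as far apart, with GG replicate 2 again the highest library and a log2 fold change of 4.17 ± 0.57 (SE, edgeR adjusted p = 0.0176).

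In the gene table of assembly T2T-MMU8v2.0, TRIM22 and TRIM5 are next to each other on chromosome 14, followed by TRIM34, LOC106993361 and TRIM6. TRIM34 had no matched identifier and was not analysed here. TRIM22 and TRIM5 are related in sequence, and estimated counts divide reads among near copies, so the separate values are uncertain. The ratio of TRIM22 to TRIM5 counts was 0.963 and 0.904 in GG replicates 1 and 2, against 0.941 and 0.714 in AG replicates 1 and 2. With both genes counted as 1 feature, an alternative chosen after seeing the data, the log2 fold change was 4.26 (edgeR adjusted p = 0.0132). Without GG replicate 1 the log2 fold change of TRIM22 was 4.76 and that of TRIM5 4.61. Without GG replicate 2 they were 3.76 and 3.53. Neither gene was called in these fits, which called few genes of the whole table, as given further on.

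TRIM6 (ENSMMUG00000013490), a ligase that makes ubiquitin chains in interferon signalling, completed the cluster. It had 39.4 and 49.4 CPM in GG replicates 1 and 2, against 9.90 and 21.5 CPM in AG replicates 1 and 2. The GG libraries lay above both AG libraries, but the AG libraries differed from each other, and the gene was not called (log2 fold change 1.50 ± 0.46 SE, edgeR adjusted p = 0.0889). DESeq2 called it (adjusted p = 0.0172), as did edgeR without AG replicate 2 (log2 fold change 2.15, adjusted p = 0.0118). LOC106993361 overlaps TRIM6 in that assembly. Other tested members that overlap coding genes there are TRIM14, TRIM21, TRIM32, TRIM37, TRIM52, TRIM54, TRIM63 and TRIM71, and the untested ones are TRIM46, TRIM66 and TRIM72. The strand setting of the counts is not given in the sources used here, so reads of overlapping genes may be mixed.

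**Figure D2:**
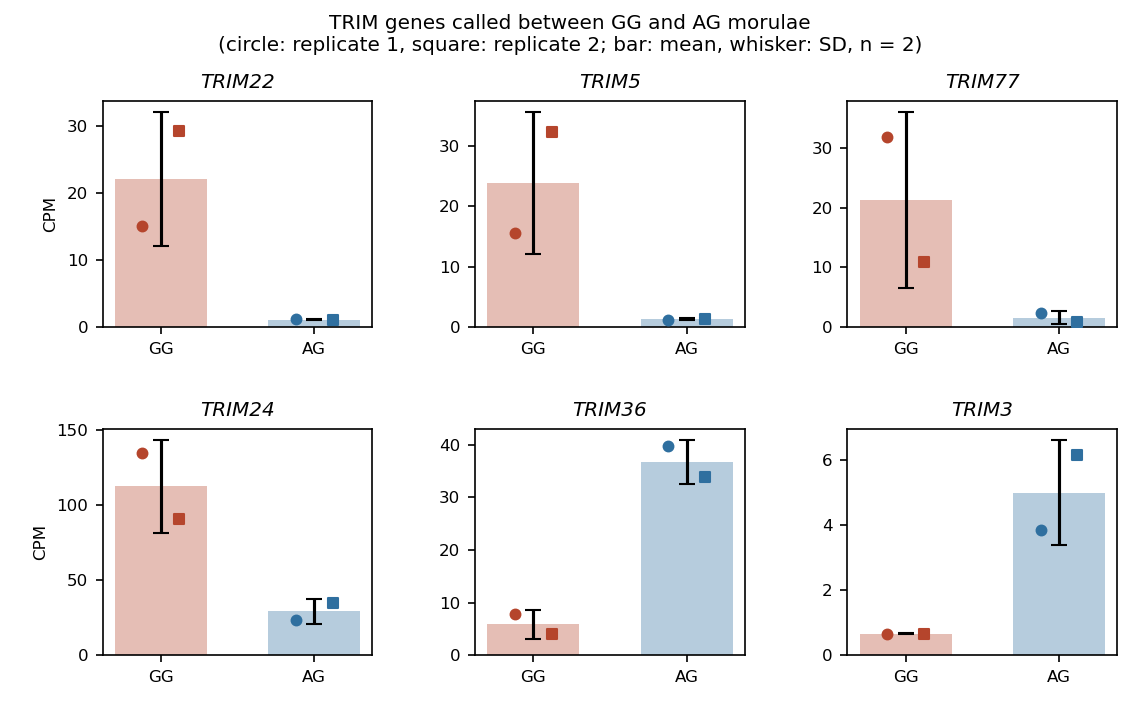
CPM of the 6 called TRIM genes in GG (left in each panel) and AG (right). Circles are replicate 1, squares replicate 2, bars the mean and whiskers the SD (n = 2); TRIM22, TRIM5, TRIM77 and TRIM24 are higher in both GG libraries, TRIM36 and TRIM3 lower in both.

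Members listed under antiviral signalling gave counts near those of all genes. TRIM22, TRIM5 and TRIM6 were listed apart, as the cluster above, so the calls of TRIM22 and TRIM5 are not counted here. Of 17 genes listed for antiviral signalling, 14 matched and 11 were tested. In the main analysis edgeR called 0 of these in either direction, against 12.9% of all genes. At an unadjusted p under 0.05 there were 4, against 32% of all genes, and DESeq2 called 1, against 23.2%. The median log2 fold change of the 11 was -0.34. TRIM14 (ENSMMUG00000041923), an adaptor of cytosolic nucleic acid sensing that lacks a RING finger, had 375 and 317 CPM in GG replicates 1 and 2, against 364 and 513 CPM in AG replicates 1 and 2. Its groups overlapped (log2 fold change -0.34 ± 0.27 SE, edgeR adjusted p = 0.423). TRIM27, first known as a fusion partner of RET, had 55.5 CPM in both GG libraries, against 52.7 and 81.4 CPM in AG replicates 1 and 2 (log2 fold change -0.27 ± 0.33 SE, edgeR adjusted p = 0.611). The GG libraries lay between the AG libraries, and the sign turned without AG replicate 2 (0.055).

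TRIM8, a regulator of cytokine and NF-kB signalling, was the DESeq2 call of this group (adjusted p = 0.0306). It had 40 and 136 counts in GG replicates 1 and 2, against 3 and 12 counts in AG replicates 1 and 2, and missed the edgeR threshold (log2 fold change 2.94 ± 0.90 SE, adjusted p = 0.0853). TRIM56, which acts in STING and RNA-sensing pathways, had 53 and 78 counts in GG, against 11 and 12 in AG (log2 fold change 1.89, edgeR adjusted p = 0.119). For both genes every GG library lay above every AG library, at few reads. TRIM65, which modifies the RNA sensor MDA5, had 126 and 118 counts in GG replicates 1 and 2, against 2 and 67 in AG replicates 1 and 2. Its AG libraries differed 23.9-fold in CPM, and it was not called (log2 fold change 1.47 ± 1.21 SE, edgeR adjusted p = 0.4505). Without AG replicate 2 its log2 fold change was 5.05 and it was called (edgeR adjusted p = 0.0145).

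TRIM21, an antibody receptor inside the cell, and TRIM26, a regulator of IRF3, lay on the other side. TRIM21 had 3.70 and 3.07 CPM in GG replicates 1 and 2, against 6.63 and 9.95 CPM in AG replicates 1 and 2. TRIM26 had 11.7 and 11.1 CPM in GG, against 27.5 and 20.2 CPM in AG. The groups of these genes did not overlap, yet neither passed the edgeR test (adjusted p = 0.152 and 0.114); TRIM26 was called without AG replicate 2 (adjusted p = 0.0434). TRIM23, which carries an ARF GTPase domain, TRIM41, TRIM11 and TRIM68 had log2 fold changes of -0.69, -0.75, -1.45 and 0.92 and were not called (edgeR adjusted p = 0.245 to 0.550). TRIM68 is the member of these whose groups overlapped.

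TRIM25, the ligase that activates the RNA sensor RIG-I, was too low to be tested in the main analysis. It had 7 and 36 counts in GG replicates 1 and 2, against 0 and 2 in AG replicates 1 and 2. Per total reads this is a ratio of 14.4 of GG to AG, with an exact 95% interval of 3.75 to 123 for counting error alone. TRIM29, a RING-less member of epithelia that restrains innate signalling, had 15 and 14 counts in GG and 0 in both AG libraries. With 3 counts set for the AG group, TRIM29 was 6.47-fold higher in GG. DESeq2 tested both genes and called neither (adjusted p = 0.212 for TRIM25 and 0.127 for TRIM29), nor did edgeR without a filter. TRIM15 had 0 counts in every library.

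TRIM24 (ENSMMUG00000002995) rose in GG. It encodes a cofactor of nuclear receptors that reads histone H3 through its PHD finger and bromodomain and is a ligase for p53. It had 135 and 90.7 CPM in GG replicates 1 and 2, against 23.4 and 35.1 CPM in AG replicates 1 and 2. The lowest GG library was above the highest AG library, and the log2 fold change was 1.94 ± 0.37 (SE, edgeR adjusted p = 0.0323), which is 3.85-fold. The call was lost without GG replicate 1 (log2 fold change 1.64, adjusted p = 0.227) and without GG replicate 2 (2.18, 0.146). Its relative TRIM33, a regulator of SMAD signalling, had 15.1 and 14.8 CPM in GG, against 27.4 and 16.8 CPM in AG (log2 fold change -0.56 ± 0.40 SE, edgeR adjusted p = 0.384). The difference between the responses of these genes was not tested. The third member of this class, TRIM66, had 12 counts in AG replicate 1 and 0 in the other libraries.

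TRIM36 (ENSMMUG00000011130), a microtubule-binding ligase whose Xenopus homologue is needed in the egg for the dorsal axis, fell in GG. It had 7.79 and 3.96 CPM in GG replicates 1 and 2, against 39.8 and 33.8 CPM in AG replicates 1 and 2. Both AG libraries were well above both GG libraries (log2 fold change -2.65 ± 0.46 SE, edgeR adjusted p = 0.0280), a 6.27-fold difference. Without GG replicate 1 the log2 fold change was -3.21 (adjusted p = 0.114), and without GG replicate 2 it was -2.27 (0.196). Of the 8 COS-box members, 3 were tested, and TRIM36 was the one called. The other two, TRIM54 and TRIM63, act on the sarcomere of muscle. TRIM54 had 41 and 69 counts in GG, against 10 and 5 in AG (log2 fold change 2.17 ± 0.83 SE, edgeR adjusted p = 0.139). TRIM63, a ligase of muscle wasting, had 11 and 115 counts in GG replicates 1 and 2, against 15 and 0 in AG replicates 1 and 2, with groups that overlapped.

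TRIM3 (ENSMMUG00000007728), an NHL-repeat ligase best known in neurons, also fell. It had 0.665 and 0.648 CPM in GG replicates 1 and 2, against 3.85 and 6.15 CPM in AG replicates 1 and 2. These were 14 and 19 counts in GG, against 54 and 121 in AG. The groups did not overlap (log2 fold change -2.92 ± 0.65 SE, edgeR adjusted p = 0.0435), a 7.57-fold difference. This was the call nearest the threshold. It was lost with the replicate block (adjusted p = 0.0628), without AG replicate 2 (log2 fold change -2.56, 0.0592), without GG replicate 1 (0.246) and without GG replicate 2 (0.262).

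The other two tested NHL members were not called, and all 3 had a negative log2 fold change. TRIM71, the LIN41 homologue that represses mRNAs in stem cells and early embryos, had 2.18 and 6.44 CPM in GG replicates 1 and 2, against 11.3 and 8.43 CPM in AG replicates 1 and 2. TRIM32, a ligase mutated in a limb-girdle muscular dystrophy, had 5.94 and 5.22 CPM in GG, against 8.12 and 18.7 CPM in AG. The groups did not overlap in either gene (edgeR adjusted p = 0.269 and 0.178). TRIM32 was called without AG replicate 1 (log2 fold change -1.76, adjusted p = 0.0390).

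TRIM77 (ENSMMUG00000048340), a PRY-SPRY gene of a primate group with near copies, rose in GG. It had 31.8 and 10.9 CPM in GG replicates 1 and 2, against 2.35 and 0.863 CPM in AG replicates 1 and 2. The groups did not overlap, although the GG libraries differed 2.92-fold (log2 fold change 3.75 ± 0.80 SE, edgeR adjusted p = 0.0402). The value moved with each library left out. The log2 fold change was 2.78 without GG replicate 1 (adjusted p = 0.215), 4.28 without GG replicate 2 (0.105), 4.61 without AG replicate 1 (0.0260) and 3.14 without AG replicate 2 (0.0329). Of 16 listed genes related to the TRIM43, TRIM48, TRIM49 and TRIM64 group, some of which are active at human genome activation, TRIM77 and TRIM60 alone had a matched identifier. The others were not analysed here.

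TRIM60 (ENSMMUG00000000102) had the most reads of any member. It had 612 and 822 CPM in GG replicates 1 and 2, against 734 and 523 CPM in AG replicates 1 and 2. The groups overlapped, with a GG library highest and an AG library lowest (log2 fold change 0.19 ± 0.28 SE, edgeR adjusted p = 0.684). The sign turned without AG replicate 2 (-0.05) and without GG replicate 2 (-0.071). TRIM60 lies between TRIM61 and TRIM75 in the T2T-MMU8v2.0 gene table, neither of which had a matched identifier.

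The single members of other structural classes gave no call in the main analysis. TRIM13 (ENSMMUG00000010898), a ligase anchored in the endoplasmic reticulum that acts in protein quality control, had 50.2 and 57.0 CPM in GG replicates 1 and 2, against 107 and 80.1 CPM in AG replicates 1 and 2. Both AG libraries were higher (log2 fold change -0.80 ± 0.30 SE, edgeR adjusted p = 0.130). TRIM37, a MATH-domain ligase that limits centrosome assembly, had 47.1 and 35.4 CPM in GG, against 17.4 and 22.8 CPM in AG, and both GG libraries were higher (1.04 ± 0.35 SE, edgeR adjusted p = 0.106). Both were called without AG replicate 2 (adjusted p = 0.0394 and 0.0493). TRIM45, which carries a filamin repeat, had 2.14 and 2.22 CPM in GG, against 4.13 and 4.16 CPM in AG, libraries that agreed closely within each group (edgeR adjusted p = 0.306).

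The remaining tested members were TRIM4, TRIM17, TRIM35, TRIM44, TRIM50, TRIM52, TRIM58 and TRIM69. Their log2 fold changes lay between -2.93 for TRIM69 and 0.78 for TRIM35, and their edgeR adjusted p between 0.138 and 0.745. TRIM58, which in red cell precursors degrades dynein, had 4 and 2 counts in GG, against 13 and 12 in AG. TRIM69 had 0 and 7 counts in GG replicates 1 and 2, against 14 and 20 in AG replicates 1 and 2. In both, the GG libraries were lower, at counts too small to pass the test. TRIM44, which lacks a RING finger, TRIM35 and TRIM52 had groups that overlapped.

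Beyond TRIM25, TRIM29 and TRIM66, the untested members had from 2 to 25 counts over the 4 libraries or 0. TRIM42 had 8 and 11 counts in GG and 0 in AG, and TRIM55, a muscle gene, had 1 and 15 counts in GG and 0 in AG. With 3 counts set for the AG group, TRIM42 was 4.24-fold and TRIM55 3.57-fold higher in GG. TRIM47 had 5 counts and TRIM66 had 12 counts in AG replicate 1, and 0 elsewhere. All their reads came from 1 library and the groups overlapped, so no fold between the groups is given. TRIM9 had 1 count in each GG library and 0 in AG. TRIM7, TRIM46, TRIM62, TRIM67 and TRIM72 had reads in both groups, and TRIM10 and TRIM15 had 0 counts in all 4 libraries.

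Among genes built like TRIM proteins but named otherwise, RFPL1, PML and TRIML2 fell in GG. Of 17 listed, 13 matched and 12 were tested, with 0 called higher in GG, against 6.34% of all genes, and 3 called lower, against 6.58%. The list's median log2 fold change was -0.37. PML, the organiser of nuclear bodies and an interferon-induced TRIM protein, had 0.475 and 0.750 CPM in GG replicates 1 and 2, against 6.34 and 8.53 CPM in AG replicates 1 and 2 (log2 fold change -3.58 ± 0.63 SE, edgeR adjusted p = 0.0280). TRIML2 had 89.1 and 66.0 CPM in GG, against 179 CPM in both AG libraries (log2 fold change -1.20 ± 0.28 SE, edgeR adjusted p = 0.0464). TRIML2 lost its call with the replicate block (0.0518) and with upper-quartile factors (0.0502). RFPL1, of a family with near copies, had 1.28 and 0.750 CPM in GG, against 965 and 131 CPM in AG replicates 1 and 2 (log2 fold change -9.09 ± 1.23 SE, -7.03 without AG replicate 1 and -9.94 without AG replicate 2). Leaving out GG replicate 1 or 2 ended the calls of RFPL1 (edgeR adjusted p = 0.0831 and 0.101), PML (0.183 and 0.160) and TRIML2 (0.233 and 0.359).

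The ubiquitin E1 and E2 enzymes charge RING ligases with ubiquitin. Of 16 listed, 15 were tested and edgeR called 0 in either direction, against 12.9% of all genes. At an unadjusted p under 0.05 there were 5, against 32% of all genes, and DESeq2 called 1, against 23.2%. Nothing about the list is read from these counts. Their median log2 fold change was -0.10. The DESeq2 call, UBE2E2, which was chosen after its values were seen, was lower in both GG libraries. It had 20.4 and 34.4 CPM in GG replicates 1 and 2, against 69.8 and 150 CPM in AG replicates 1 and 2. The edgeR log2 fold change was -2.01 ± 0.49 SE (edgeR adjusted p = 0.0525, DESeq2 adjusted p = 0.000973).

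TRIM ligases modify many proteins of nucleic acid sensing and interferon signalling. Of 16 tested genes of RNA and DNA sensing, edgeR called 0 higher in GG and 1 lower, against 12.9% of all genes in either direction, and their median log2 fold change was 0.05. DESeq2 called 3, against 23.2% of all genes. These were CGAS, IRF7, which was lower in GG with 0 and 2 counts in GG replicates 1 and 2 and 41 and 17 in AG replicates 1 and 2 (DESeq2 adjusted p = 0.00774), and IKBKB, which was higher (0.0367). IRF7 and IKBKB, picked with their values in view, were not called by edgeR (adjusted p = 0.0539 and 0.0850). CGAS, the sensor of cytosolic DNA, had 2.47 and 1.33 CPM in GG replicates 1 and 2, against 66.5 and 10.3 CPM in AG replicates 1 and 2 (log2 fold change -4.34 ± 0.99 SE, edgeR adjusted p = 0.0462). The value was -2.45 without AG replicate 1 (0.0448) and -5.17 without AG replicate 2 (0.00183), and the call ended without GG replicate 1 or 2 (0.182 and 0.238). Of 9 interferon receptor and STAT genes, all tested, edgeR called 0, against 12.9% of all genes. At an unadjusted p under 0.05 there were 2, against 32%, and DESeq2 called 2, against 23.2%.

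**Figure D3:**
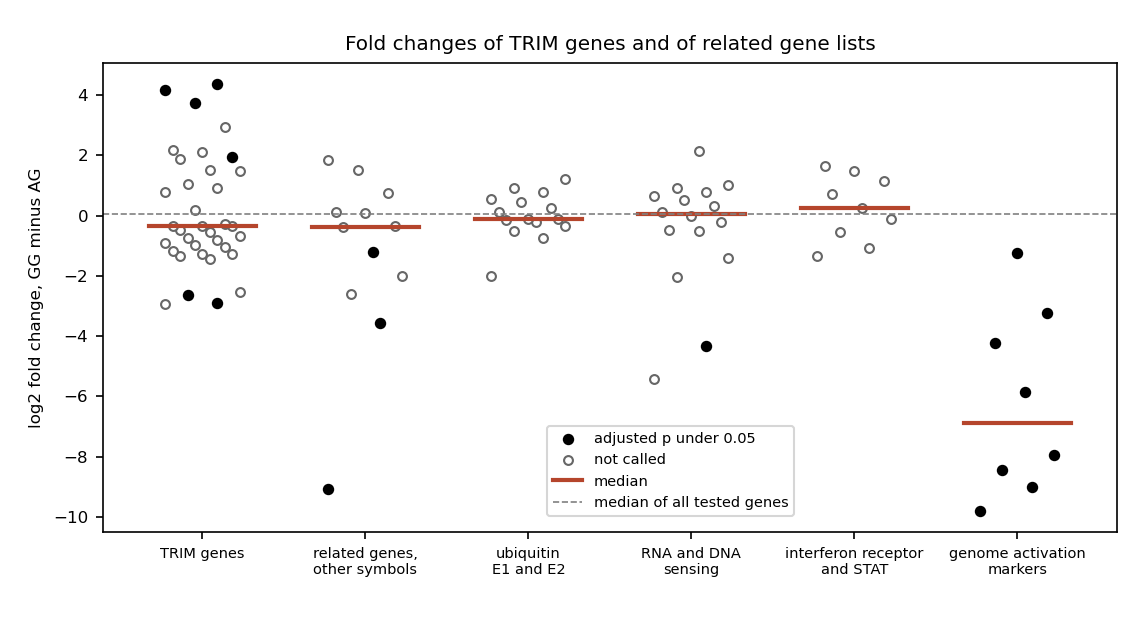
Log2 fold change, GG minus AG, of each tested gene in 6 lists, filled where the adjusted p is under 0.05. Red lines mark list medians and the dashed line the median of all tested genes (0.04); TRIM genes spread to both sides (-2.93 to 4.35), while the 8 genome activation markers lie between -9.81 and -1.23.

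Markers of embryonic genome activation moved with the groups beside all of these results. Of 20 listed, 8 matched and were tested. All 8 (ZSCAN4, LEUTX, TPRX1, KLF17, KHDC1L, CCNA1, ZIM3 and ZNF280A) were called lower in GG, against 6.58% of all genes. Their summed level was 2368 and 1770 CPM in GG replicates 1 and 2, against 8553 and 6197 CPM in AG replicates 1 and 2. KHDC1L gave most of this sum, with 2317 and 1717 CPM in GG, against 5389 and 4066 CPM in AG, in the same order. The 8 markers had log2 fold changes between -9.81 and -1.23, the smallest in size for KHDC1L. Without GG replicate 1 or 2, 3 of them were called. Of 7 tested trophectoderm markers, edgeR called 4 higher in GG, against 6.34% of all genes, and 0 lower, against 6.58%. DESeq2 called these 4 and also TFAP2C and DAB2, which were lower in GG, against 23.2% of all genes in either direction. Of 8 tested pluripotency markers, DPPA2, TFCP2L1 and ESRRB were called higher in GG, against 6.34% of all genes. DPPA4 and KLF17, the last also a genome activation marker here, were called lower, against 6.58%. Of 5 tested primitive endoderm markers, APOA1 and LAMB1 were called higher in GG, against 6.34% of all genes. GATA4, GATA6 and PDGFRA of that list were not called (edgeR adjusted p = 0.690, 0.930 and 0.414). Their log2 fold changes were 0.36, 0.09 and -0.38, and PDGFRA was lower in both GG libraries. The part of these differences, and of the blood marker difference above, in the TRIM results was not tested.

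**Figure D4:**
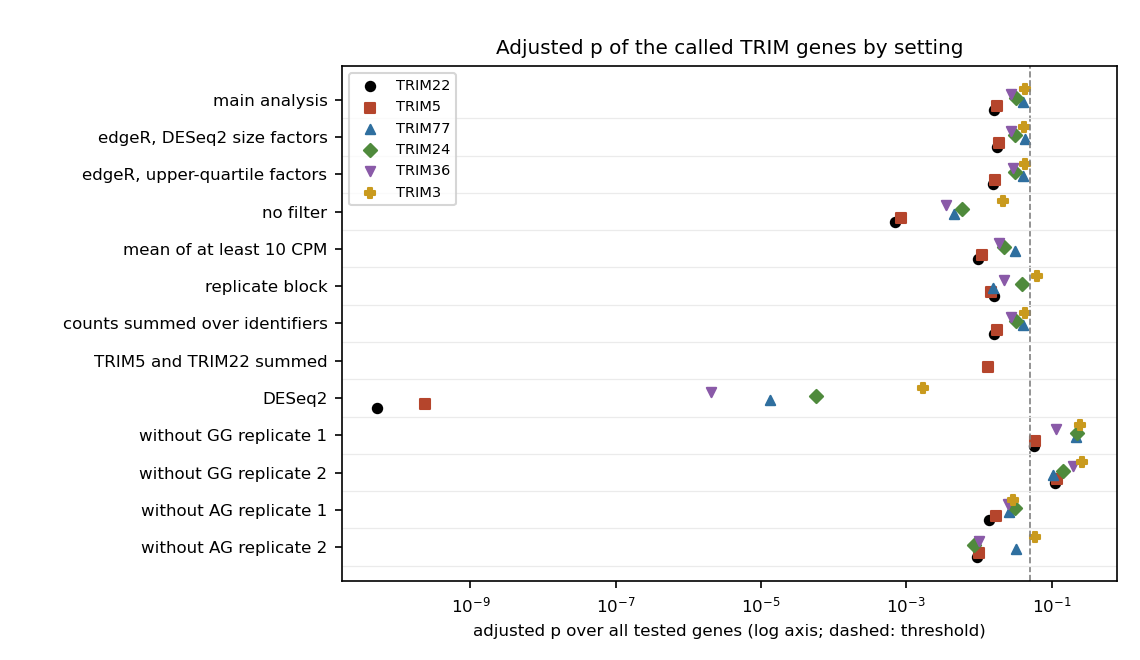
Adjusted p of the 6 called TRIM genes under the main analysis and each alternative, on a log axis, with the 0.05 threshold dashed. All 6 lie right of the threshold without GG replicate 1 or GG replicate 2, and TRIM3 also with the replicate block (0.0628) and without AG replicate 2 (0.0592). The point for TRIM5 and TRIM22 summed stands for both, and TRIM3 was not tested at a mean of at least 10 CPM.

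Calls over the whole table, those of TRIM genes included, were mostly lost with either GG library left out. Without GG replicate 1, edgeR called 0 of 37 tested members, with 7 at an unadjusted p under 0.05, and 0.851% of all genes. Without GG replicate 2 it called 0 of 38, with 8 at an unadjusted p under 0.05, and 0.602% of all genes. Without AG replicate 1 it called 7 members, against 15.7% of all genes, and without AG replicate 2 it called 10, against 26.7% of all genes. DESeq2 on all 4 libraries called 8 members, the 6 named above with TRIM6 and TRIM8, against 23.2% of all genes it tested.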

How the data were processed

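The authors deposited 1 table of estimated counts per Ensembl macaque gene, 1 column per library and not scaled to depth; 30.0% to 32.2% of values in a library were not whole. Per the submitters' processing notes the build was rheMac8 and the tools included Salmon 0.12.0, STAR 2.6.0c and Trim Galore, with neither their role nor their order stated. The annotation release and strand setting were not given in the sources used here. cDNA was amplified with a SMARTer low-input kit, per the labels' protocols, with no molecular identifiers named, so intervals cover counting error only. Ratios with 3 counts set carry no interval.

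Counts were rounded and tested on the whole table with edgeR 4.0.16 in R 4.3.3: low-count genes removed with filterByExpr (count 10, total 15), TMM factors, quasi-likelihood F test, Benjamini-Hochberg adjustment over 13227 genes, group as the only term. Standard errors are those implied by the F statistic. CPM use the TMM-adjusted total of tested genes. The script was tested on simulated data. Symbols were matched by identifier for 68.8% of genes; neighbours come from the RefSeq gene table of T2T-MMU8v2.0, which is not the build of the counts. A ratio against a group with 0 counts uses 3 counts over that group and the observed count of the other, so it is not a confidence limit. Alternatives were DESeq2 1.42.0, 2 other scalings, 2 other filters, summed identifiers, a replicate block and leaving out each library. All tested members are named, with statistics for called ones and for those with a mean of at least 50 CPM. The members and lists were chosen with earlier results of these data known.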

Additional observations from a re-analysis of the deposited data

How the results depend on the processing

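The median log2 fold change of the tested TRIM genes stayed between -0.54 and -0.26 in all alternatives. The number called higher in GG was 4 in the main analysis and ranged from 0 to 7 when a library was left out; the number called lower was 2, ranged from 0 to 3, and was 1 with a minimum mean of 10 CPM, which removes TRIM3, and 1 with the replicate block. The same 6 genes were called with both other scalings, without a filter and with identifiers summed. The replicate block changed no other TRIM call; same-numbered libraries shared little deviation (Pearson r = 0.0940 over 13227 genes), so the numbers name libraries and do not pair them. Among all genes, 839 were higher and 870 lower in GG, with 49 to 2007 and 35 to 1779 when a library was left out, 1628 and 1711 with DESeq2, and 1249 and 1360 without a filter. Among related genes of 4 lists, 0 were higher and 4 lower, with 0 to 2 and 0 to 7 when a library was left out, and 2 and 7 with DESeq2. Of the 8 genome activation markers, 3 to 8 were lower when a library was left out. No called gene changed sign. Among uncalled members the sign turned without AG replicate 2 for TRIM27 (0.055) and TRIM60 (-0.05), without AG replicate 1 for TRIM35 (-0.16), TRIM44 (0.54) and TRIM52 (0.066), without GG replicate 2 for TRIM60 (-0.071) and TRIM63 (-0.045), and without GG replicate 1 for TRIM68 (-0.051). Over those results the left-out values ranged from -0.56 to 0.055 for TRIM27, -0.071 to 0.45 for TRIM60, -0.16 to 6.89 for TRIM35, -0.93 to 0.54 for TRIM44, -0.69 to 0.066 for TRIM52, -0.045 to 8.71 for TRIM63 and -0.051 to 1.50 for TRIM68. The cause of these changes was not tested. Where a library is left out, the single library of its group is assumed to vary like the pair of the other group. With 2 libraries a group, an exact permutation test of 1 gene cannot go below p = 0.333. The 12 members with too few reads for the filter, TRIM25 and TRIM29 among them, were not tested in the main analysis.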
